A study of Mus musculus with 40 samples.

Results

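The RNA levels of 34 imprinted genes were followed in mouse embryonic stem (mES) cells and in the epiblast-like cells (EpiLCs) made from them, with and without proteins of the nuclear lamina. The genes were listed by name as well-known imprinted genes, without a threshold on their values, and were looked up by symbol among the 56748 genes of the count table. All 34 were found, and 33 of them were among the 23399 genes that passed the filter on low counts. The remaining member, *Kcnq1*, which encodes a potassium channel, had 84 reads in the 40 libraries together and was not tested.

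Imprinted genes are transcribed mainly from the copy inherited from a single parent. At many of them, though not all, the copies are told apart by DNA methylation laid down in the germ line at imprinting control regions. This methylation is kept in the early embryo by the methyltransferase DNMT1 and by zinc-finger proteins such as ZFP57. Those zinc-finger proteins bring in TRIM28 and the H3K9 methyltransferase SETDB1. Which members depend on this methylation was not tested. Many of these genes act on growth, on the placenta or on the brain, and mES cells in culture can lose imprints. The counts hold no information on the parental copy, so each level below is that of both copies together. In bulk RNA, fewer cells with a transcript and less transcript per cell cannot be told apart.

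Wild-type (WT) cells were compared with 3 mutants. LBRKO cells carry frameshifts in *Lbr*, the gene of the lamin B receptor in the inner nuclear membrane. TKO cells lack all lamins through disruption of *Lmna*, *Lmnb1* and *Lmnb2*, and QKO cells carry deletions in *Lbr* in addition, a frameshift on one allele and an in-frame deletion on the other. Naive mES cells were grown with LIF, 1 µM PD0325901 (a MEK inhibitor) and 3 µM CHIR-99021 (a GSK3 inhibitor), and EpiLCs, a model of the epiblast around implantation, were collected after 48 h in 20 ng/mL FGF and 12 ng/mL activin A. Each stage had 8 WT libraries and 4 of each mutant, each from its own culture well, so p-values measure the spread between wells. The QKO cells were a single clone derived from the TKO line, several LBRKO clones were made and the labels do not give the clone of a library, and aneuploid cells were described by the study in the TKO line and in part of a WT line. A difference between lines that does not come from the mutation cannot be told apart from the mutation.

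The libraries held 22.6 to 48.9 M reads on genes. WT replicates 1 to 4 (25.4 to 33.5 M), TKO and QKO were the shallower libraries, and WT replicates 5 to 8 (39.4 to 48.9 M) and LBRKO the deeper, although the labels name no batch. In mES cells *Lmnb1* was at a mean of 515 counts per 1000000 reads (CPM) in WT, 8.47 in TKO and 13.8 in QKO, *Lmnb2* at 105, 4.30 and 2.58, and *Lmna* at 57.8, 15.9 and 19.1 CPM. In EpiLCs *Lmnb1* was at 516, 0.840 and 1.83 CPM and *Lmna* at only 11.3, 7.75 and 8.38, so *Lmna* checks those labels weakly. *Lbr* RNA remained at 209 CPM in LBRKO and 237 in QKO against 372 in WT, so its level does not check those labels. Naive markers summed to 4227 to 6008 CPM in mES libraries and epiblast markers to 162 to 264 CPM. In EpiLCs naive markers summed to 183 to 271 CPM in WT and 317 to 460 in LBRKO. TKO EpiLCs had 197 to 218 CPM of them and QKO 232 to 274. Epiblast markers summed to 3556 to 4257 CPM in WT and 2914 to 3277 in LBRKO EpiLCs. TKO EpiLCs had 3544 to 3822 CPM of them and QKO 2553 to 2706. Of 11 naive markers 3 rose and 0 fell in LBRKO, 1 and 0 in TKO and 5 and 1 in QKO EpiLCs. Of 8 epiblast markers it was 0 and 0, 1 and 0, and 1 and 0. Markers of pluripotent cells summed to 1160 to 1857 CPM, and fibroblast markers to 2.85 to 10.2 CPM in mES libraries. In EpiLCs the fibroblast markers summed to 19.8 to 26.2 CPM in WT, 12.1 to 15.5 in LBRKO, 20.9 to 21.6 in TKO and 9.99 to 10.7 in QKO. Markers of two-cell-like cells summed to 0.145 to 1.40 CPM in WT mES cells and to 0.118 or less in mutant mES cells, and in EpiLCs to 7.19 to 10.5 CPM in WT, 0.481 to 1.17 in LBRKO, 1.54 to 2.51 in TKO and 1.34 to 2.13 in QKO, where 5 of 5 fell in each mutant. In mES cells, primitive endoderm markers summed to 134 to 190 CPM in WT, 186 to 283 in LBRKO, 132 to 136 in TKO and 78.0 to 84.4 in QKO, and trophoblast markers to 109 to 123, 140 to 146, 99.4 to 105 and 67.5 to 75.0 CPM. In EpiLCs the endoderm markers summed to 65.3 to 82.8 CPM in WT, 88.6 to 113 in LBRKO, 64.1 to 80.3 in TKO and 71.1 to 81.7 in QKO, and the trophoblast markers to 22.4 to 29.3, 21.8 to 24.6, 25.3 to 27.2 and 36.0 to 37.8 CPM. Of 10 primitive endoderm markers 4 rose and 0 fell in LBRKO, 0 and 1 in TKO and 1 and 6 in QKO mES cells, and 1 and 0, 0 and 0, and 3 and 2 in EpiLCs. Of 7 tested trophoblast markers 2 rose and 0 fell in LBRKO, 0 and 1 in TKO and 1 and 1 in QKO mES cells, and 1 and 0, 0 and 0, and 2 and 1 in EpiLCs. Among all genes 3.06%, 2.68% and 10.6% rose and 3.25%, 3.77% and 6.66% fell in LBRKO, TKO and QKO mES cells. In EpiLCs 3.04%, 1.44% and 13% of all genes rose and 2.63%, 1.48% and 8.16% fell. The trophoblast genes *Prl3d1* and *Tpbpa* were below 0.1 CPM in all groups. The part of these marker differences in the results below was not tested.

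The sequences between 2 pairs of members are shown because *Peg3* and *Usp29* were called together in QKO EpiLCs and *Sgce* and *Peg10* together in LBRKO and TKO mES cells. *Peg3* and *Usp29*, and likewise *Sgce* and *Peg10*, are transcribed away from each other from start sites a short distance apart. Each line gives the upper strand (GRCm39) between the annotated starts. Capitals mark TGCCGC, the hexamer that ZFP57 recognizes in its methylated form, which was searched on both strands.

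Peg3-Usp29, chr7:6733431-6733576, + strand, intergenic: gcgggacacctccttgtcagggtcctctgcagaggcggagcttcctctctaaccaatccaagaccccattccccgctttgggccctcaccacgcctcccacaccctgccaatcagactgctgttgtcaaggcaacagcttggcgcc
Sgce-Peg10, chr6:4747208-4747305, + strand, intergenic: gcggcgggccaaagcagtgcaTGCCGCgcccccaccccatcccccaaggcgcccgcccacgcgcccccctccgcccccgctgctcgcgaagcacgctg

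The 98 bases between *Sgce* and *Peg10* held the hexamer 1 time and 13 CpG dinucleotides, and the 146 bases between *Peg3* and *Usp29* held it 0 times and 5 CpGs. Of 32841 RefSeq promoters (GRCm38.p6), 4.1% held the hexamer in a window of 98 bases and 5.81% in a window of 146 bases, with medians of 3 and 4 CpGs. A match describes the reference sequence and is not a measured binding site. Only the bases between the annotated starts were searched, so a count of 0 says nothing of the rest of a locus or its imprinting control region.

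**Figure D1:**
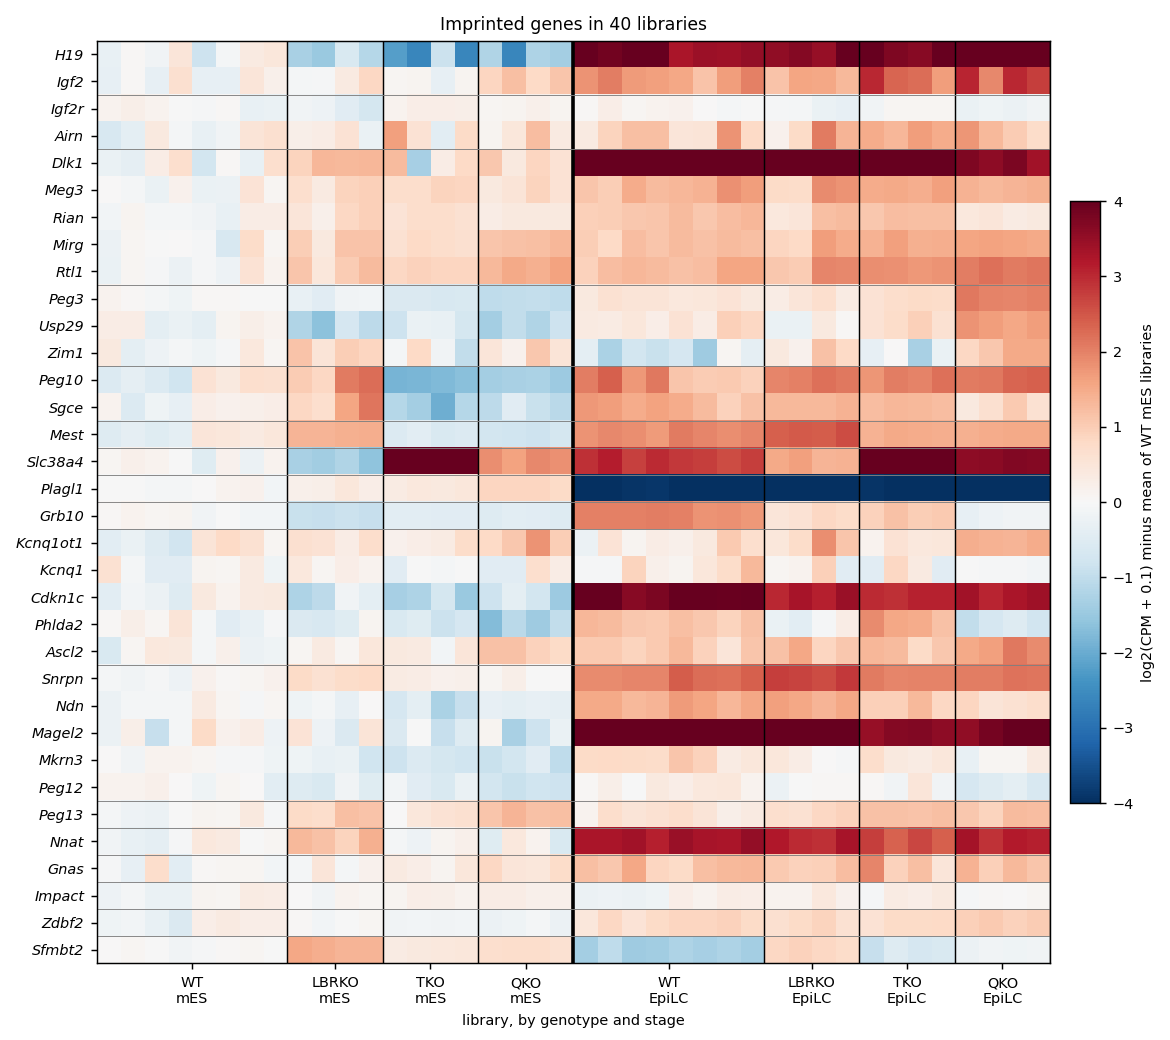
Heat map of the 34 imprinted genes (rows, by cluster) in the 40 libraries (columns, by stage and genotype), coloured by log2(CPM + 0.1) minus the mean of the WT mES libraries, with the scale ending at -4 and 4. *Dlk1*, *Cdkn1c* and *Magel2* are raised in every EpiLC library, *Plagl1* is lowered in every one of them, and *Slc38a4* is raised in the 4 TKO mES libraries.

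The first comparison asked how imprinted genes changed as WT cells left the naive state. Most went up. Of 33 tested members, 21 rose more than 2-fold and 2 fell (edgeR's quasi-likelihood test, Benjamini-Hochberg adjusted p under 0.05 over all genes tested), against 18.2% and 12.9% of all genes. The median log2 fold change of the members was 1.17, and that of all genes 0.07. By the adjusted p alone 30 members passed, against 64.3% of all genes. All adjusted p-values below come from this test, and each log2 fold change is followed by its standard error.

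The largest rises were those of genes almost silent in mES cells. *Dlk1*, a membrane protein related to Notch ligands, was at 0.0484, 0.133 and 0.294 CPM (lowest, median and highest library) in WT mES cells and at 5.15, 6.31 and 7.56 CPM in WT EpiLCs. *Magel2*, a MAGE-family gene, went from 0.0297, 0.155 and 0.314 to 4.49, 6.29 and 7.75 CPM. The stages did not overlap for either gene, and the log2 fold changes were 5.25 ± 0.24 (adjusted p = 1.31e-22) and 5.19 ± 0.24 (adjusted p = 2.67e-22).

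*Cdkn1c*, an inhibitor of cyclin-dependent kinases, rose by 4.04 ± 0.15 from a median of 1.31 to 22.6 CPM. *H19*, a long noncoding RNA that restrains growth, rose by 3.90 ± 0.23 from 0.4996 to 7.81 CPM, and *Nnat*, the gene of neuronatin, by 3.35 ± 0.12 from 1.90 to 19.7 CPM. *Slc38a4*, a placental amino acid transporter, rose by 2.85 ± 0.08 from 7.64 to 49.9 CPM. *Cdkn1c*, *H19* and *Nnat* were thus low in the naive state and readily detected 48 h later, while *Slc38a4* was already detected in the naive state. *Igf2*, a fetal growth factor, passed at 3.22 ± 0.45 but stayed at 0.420 CPM or less in WT EpiLCs.

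The 5 members of the *Dlk1*-*Meg3* cluster all rose. The maternally expressed noncoding RNAs *Meg3*, *Rian* and *Mirg*, which host many small RNAs, rose by 1.38 ± 0.13, 1.12 ± 0.10 and 1.10 ± 0.12, and *Rtl1*, a retrotransposon-derived placental gene, by 1.28 ± 0.12. Relative to the median of chromosome 12, *Rian* (0.94) and *Mirg* (0.92) were under 2-fold. In the *Snrpn*-*Ndn* cluster, *Snrpn*, a splicing protein (2.13 ± 0.07), *Ndn*, the MAGE-family protein necdin (1.49 ± 0.09), and *Magel2* rose, and *Mkrn3* (0.76 ± 0.11) and *Peg12* (0.25 ± 0.10) stayed under 2-fold. *Grb10*, an adaptor that dampens insulin receptor signalling, rose by 1.93 ± 0.05, and *Mest*, which encodes a hydrolase-like protein, by 1.83 ± 0.11. The other members that rose were *Peg10* (1.54 ± 0.21), *Sgce* (1.44 ± 0.16), *Airn* (1.33 ± 0.39), *Gnas* (1.17 ± 0.15), *Phlda2* (1.13 ± 0.13) and *Ascl2* (1.02 ± 0.15).

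*Plagl1* and *Sfmbt2* were the 2 members that fell. *Plagl1*, a zinc-finger transcription factor, went from 113, 121 and 138 CPM to 5.57, 6.58 and 8.17 CPM (-4.19 ± 0.09, adjusted p = 8.33e-35). *Sfmbt2*, a polycomb protein whose intron holds a miRNA cluster, went from 79.8, 87.5 and 92.9 to 32.2, 34.5 and 43.1 CPM (-1.29 ± 0.05). *Impact*, a regulator of translation, and *Igf2r*, the receptor that clears IGF2, had log2 differences of 0.02 ± 0.09 and 0.08 ± 0.07. *Zdbf2* (0.72 ± 0.09), *Peg3* (0.48 ± 0.05), *Usp29* (0.52 ± 0.14), *Peg13* (0.48 ± 0.11) and *Zim1* (-0.80 ± 0.27) passed the adjusted p but not 2-fold, and *Kcnq1ot1* passed neither (0.32 ± 0.19).

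A few of these calls rested on part of the WT libraries. *Peg10* had a mean of 58.5 CPM in mES replicates 1 to 4 and 128 in replicates 5 to 8, and of 366 and 175 CPM in EpiLCs, without overlap. With replicates 5 to 8 alone *Peg10* was at 0.46 ± 0.17 and *Airn* at 1.12 ± 0.55 (adjusted p = 0.0819), and with replicates 1 to 4 alone *Phlda2* was at 0.97 ± 0.18 and *Ascl2* at 0.93 ± 0.21. Between these sets of WT libraries, 12 of 33 members did not overlap in mES cells and 6 of 33 in EpiLCs, against 21.9% and 13.7% of all genes tested. *Mest* (62.9 and 116 CPM) and *Kcnq1ot1* (52.0 and 104 CPM) were among them in mES cells.

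Levels of different genes were compared per kilobase of exon. In WT mES cells *Impact* (37.7 CPM per kb), *Mest* (22.7), *Igf2r* (18.2) and *Snrpn* (17.8) were the highest members. In WT EpiLCs *Mest* (80.5 CPM per kb), *Snrpn* (78.1), *Grb10* (41.0) and *Peg10* (40.6) led. *Mest* and *Snrpn* share exon bases with other genes, and a second table that allowed 100 alignments held 1.21 and 1.42 times as many of their reads.

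The next comparisons asked which imprinted genes differed in cells without LBR, without lamins or without both, and all use the same WT libraries of a stage as controls. In mES cells, 6 members rose in LBRKO (3.06% of all genes) and 3 fell (3.25%), 1 rose in TKO (2.68%) and 4 fell (3.77%), and 7 rose in QKO (10.6%) and 4 fell (6.66%). In EpiLCs, 2 rose in LBRKO (3.04%) and 3 fell (2.63%), 1 rose in TKO (1.44%) and 1 fell (1.48%), and 5 rose in QKO (13%) and 3 fell (8.16%).

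By the adjusted p alone, 22 of 33 members passed in LBRKO mES cells (24% of all genes), 21 in TKO (21.3%) and 25 in QKO (44.5%). In EpiLCs 12 passed in LBRKO (25.2%), 11 in TKO (14.7%) and 26 in QKO (54.8%). The members had no common direction, with medians from -0.03 to 0.28 (log2) over the 6 comparisons, and all genes had medians from -0.04 to 0.02. Of 10 maternally expressed members tested, 0, 0 and 2 rose and 1, 2 and 2 fell in LBRKO, TKO and QKO mES cells. Of 22 paternally expressed members, 6, 1 and 5 rose and 2, 2 and 2 fell.

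**Figure D2:**
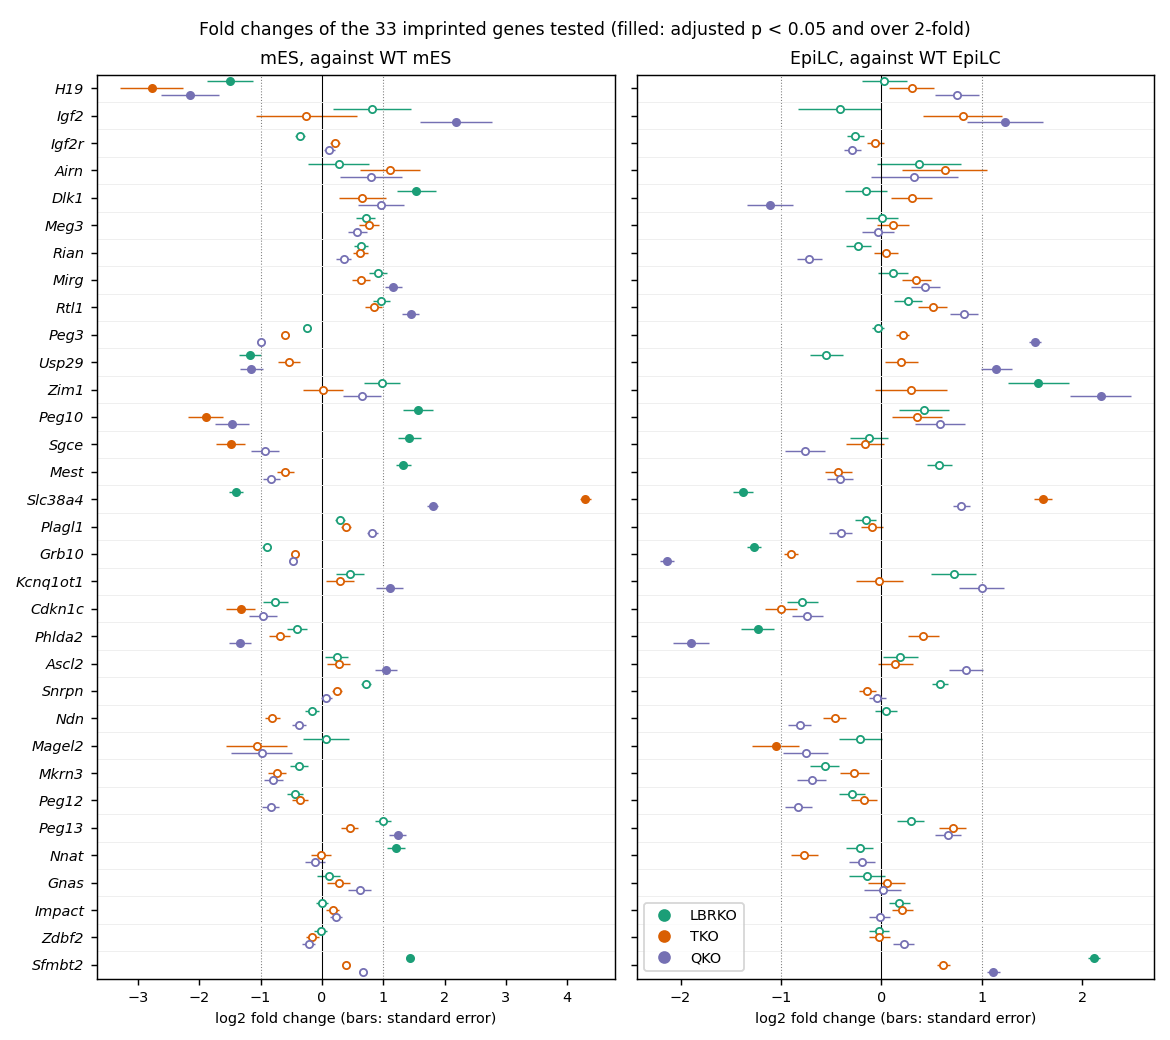
Log2 fold change against WT (x axis, bars are standard errors) of the 33 tested members (y axis) in LBRKO, TKO and QKO, for mES cells and EpiLCs. Filled points passed an adjusted p under 0.05 and 2-fold. *Slc38a4* in TKO mES cells at 4.30 lies furthest to the right, and *H19* falls in all 3 mutants in mES cells.

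*Slc38a4* (chr15:96892701-96953837, GRCm39) had the largest rise of any member in a mutant. WT mES cells had 5.01, 7.64 and 8.17 CPM, and the 4 TKO libraries 143, 142, 146 and 131 CPM. QKO mES cells had 26.0, 21.6, 26.9 and 25.5 CPM and LBRKO mES cells 2.83, 2.64, 3.01 and 2.25. None of the 4 genotypes overlapped another, with TKO highest and LBRKO lowest.

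Against WT, *Slc38a4* changed by 4.30 ± 0.09 in TKO (adjusted p = 1.08e-32), 1.80 ± 0.09 in QKO and -1.41 ± 0.12 in LBRKO mES cells. The order was the same in EpiLCs, with 133, 167, 159 and 172 CPM in TKO, 85.0, 88.3, 94.3 and 91.8 in QKO, 43.6, 49.9 and 63.4 in WT and 20.5, 22.1, 18.3 and 18.7 in LBRKO, again without overlap. TKO (1.61 ± 0.09) and LBRKO (-1.38 ± 0.10) passed 2-fold there and QKO (0.80 ± 0.09) the adjusted p alone. Relative to TKO, QKO was at -2.49 ± 0.11 in mES cells (adjusted p = 1.5e-20) and -0.81 ± 0.10 in EpiLCs. Of 9 tested neighbours within 500 kb, 0, 1 and 2 were called in LBRKO, TKO and QKO mES cells (6.31%, 6.45% and 17.2% of all genes) and 0, 1 and 4 in EpiLCs (5.67%, 2.91% and 21.2%), all of them higher.

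*Sfmbt2* (chr2:10375321-10600064) was raised most in LBRKO cells. WT mES cells had 79.8, 87.5 and 92.9 CPM and LBRKO mES cells 256, 239, 226 and 223, while TKO (110.1, 114, 117 and 119.6 CPM) and QKO (139, 141, 143 and 133 CPM) lay between them without overlap. The changes were 1.43 ± 0.06 in LBRKO (adjusted p = 7.52e-22), 0.40 ± 0.06 in TKO and 0.67 ± 0.06 in QKO. In EpiLCs WT cells had 32.2, 34.5 and 43.1 CPM, TKO 46.2, 61.2, 55.0 and 56.8, QKO 74.5, 78.5, 77.8 and 79.2 and LBRKO 154, 166, 155 and 146. LBRKO EpiLCs thus had more *Sfmbt2* RNA than any WT mES library, at 2.12 ± 0.06 against WT EpiLCs (adjusted p = 9.05e-28), with QKO at 1.12 ± 0.06 and TKO at 0.62 ± 0.06.

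The miRNA hairpins in the *Sfmbt2* intron moved the same way. Of 12 tested, 6 rose in LBRKO, 0 in TKO and 7 in QKO mES cells, and 11, 1 and 9 in EpiLCs, and in the WT passage 5 fell (12.9% of all genes). Of all genes, 3.06%, 2.68% and 10.6% rose in LBRKO, TKO and QKO mES cells and 3.04%, 1.44% and 13% in EpiLCs. *Mir669k* had a mean of 0.0466 CPM in WT EpiLCs and 0.435 in LBRKO EpiLCs. Total RNA libraries read the host transcript across a hairpin and not the mature miRNA, and hairpins of this family resemble each other. Among neighbours of *Sfmbt2*, *Gata3*, a transcription factor of trophoblast, rose in LBRKO (1.20) and QKO EpiLCs (2.09) and in QKO mES cells (2.36), and *Itih5* fell in LBRKO (-2.26) and QKO EpiLCs (-2.73).

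**Figure D3:**
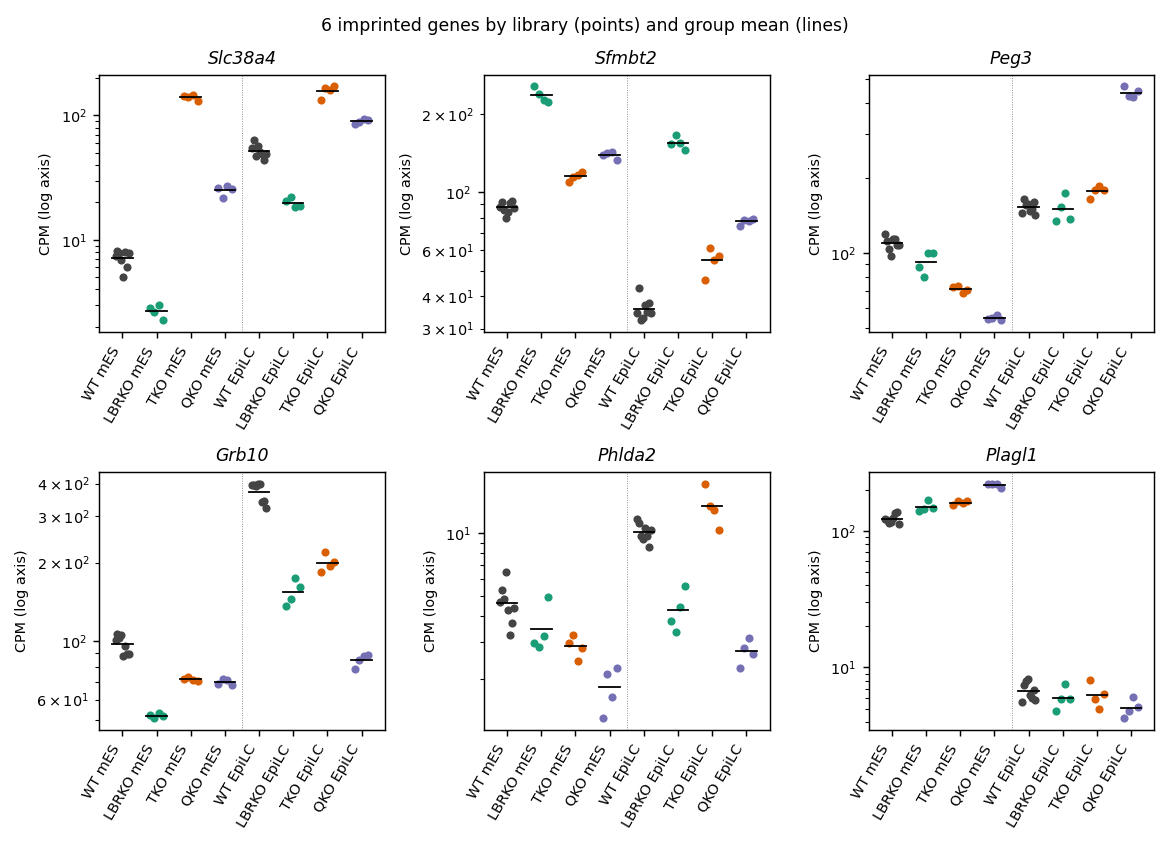
CPM (log axis) of *Slc38a4*, *Sfmbt2*, *Peg3*, *Grb10*, *Phlda2* and *Plagl1* in each library (points) with group means (lines), by genotype and stage. *Slc38a4* is highest in TKO and *Sfmbt2* in LBRKO at both stages, and *Peg3* is highest and *Grb10* lowest in QKO among the EpiLCs.

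In QKO cells *Peg3* and *Usp29* were lower than in WT in mES cells and higher in EpiLCs. *Peg3* (chr7:6706891-6733430), a paternally expressed zinc-finger gene, was at 97.3, 109.5 and 119 CPM in WT and 54.2, 54.9, 56.2 and 53.6 in QKO mES cells, and at 142, 153 and 165 in WT and 466.05, 427, 420.4 and 446 in QKO EpiLCs. The groups did not overlap at either stage, and the changes were -0.996 ± 0.06, just under 2-fold, and 1.53 ± 0.06 (adjusted p = 4.72e-24). *Usp29*, a ubiquitin-specific protease gene that starts across the first stretch printed above, changed by -1.15 ± 0.19 in QKO mES cells and 1.15 ± 0.16 in QKO EpiLCs, where it had 12.5, 11.5, 10.5 and 11.5 CPM against 4.32, 4.75 and 6.99 in WT.

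*Zim1*, a maternally expressed zinc-finger gene beside *Peg3*, was at 0.780, 0.613, 1.22 and 0.789 CPM in QKO mES cells against 0.374, 0.502 and 0.736 in WT (0.65 ± 0.31, adjusted p = 0.0847). It rose in QKO EpiLCs from 0.135, 0.285 and 0.563 CPM to 1.01, 1.22, 1.70 and 1.71 (2.18 ± 0.30). The 3 members of the cluster were thus all higher in QKO EpiLCs, although their expressed copies come from different parents. In TKO *Peg3* was at 73.2, 73.4, 69.2 and 71.1 CPM in mES cells (-0.61 ± 0.06) and 164, 178, 185 and 179 in EpiLCs (0.21 ± 0.06). In LBRKO *Peg3* stayed within 2-fold (-0.25 ± 0.06 and -0.03 ± 0.06), *Usp29* fell in mES cells (-1.17 ± 0.18) and *Zim1* rose in EpiLCs (1.56 ± 0.30).

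Some *Usp29* calls were sensitive to the libraries or the table. In QKO EpiLCs *Usp29* was at 0.99 ± 0.18 with WT replicates 5 to 8 alone, in QKO mES cells at -0.72 ± 0.15 when 100 alignments were allowed, and in LBRKO mES cells at -0.90 ± 0.22 with LBRKO replicates 3 and 4 alone. Exons of *Zim3* on the other strand cover part of *Usp29*. Of 21 tested neighbours within 500 kb, 6 rose and 0 fell in QKO mES cells, where *Peg3* and *Usp29* were lower. In QKO EpiLCs 6 rose and 0 fell, among them *Or10am5* (4.05), *Zfp773* (2.81) and *Zfp28* (1.98). The shares of all genes that rose were 10.6% and 13%.

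*Grb10* (chr11:11880508-11988683) was below WT in every mutant at both stages. WT mES cells had 88.3, 98.6 and 107 CPM, LBRKO 52.4, 51.0, 53.4 and 51.8, TKO 72.1, 73.0, 71.1 and 70.7 and QKO 68.5, 71.9, 71.2 and 68.5. No mutant library overlapped WT, though the changes (-0.90 ± 0.07, -0.44 ± 0.07 and -0.48 ± 0.07) were under 2-fold. In EpiLCs WT had 323, 393 and 398 CPM, LBRKO 137, 145, 175 and 162, TKO 185, 219, 194 and 201 and QKO 78.3, 85.1, 87.9 and 88.7. QKO was lowest at -2.13 ± 0.07 (adjusted p = 4.2e-26), followed by LBRKO at -1.27 ± 0.07 and TKO at -0.90 ± 0.07.

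The members around *Kcnq1* went different ways. *Phlda2* (chr7:143055282-143056887), which restrains placental growth, was at 8.58, 10.02 and 11.6 CPM in WT EpiLCs, 3.79, 3.35, 4.43 and 5.60 in LBRKO, 17.2, 13.5, 12.96 and 10.4 in TKO and 2.27, 2.81, 3.14 and 2.63 in QKO. It fell in QKO (-1.89 ± 0.18) and LBRKO (-1.23 ± 0.17), both without overlap with WT, and was at 0.42 ± 0.15 in TKO (adjusted p = 0.0618). In mES cells *Phlda2* fell in QKO (-1.33 ± 0.18), from 3.26, 4.51 and 6.51 CPM in WT to 1.30, 2.11, 1.65 and 2.26.

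*Ascl2*, a transcription factor of trophoblast, was called in QKO mES cells (1.04 ± 0.18), with 2.57, 2.61, 2.16 and 1.92 CPM against 0.688, 1.10 and 1.49 in WT. The call was close to the threshold, at 0.97, 0.999, 0.99 and 0.98 without WT replicate 1, WT replicate 7, QKO replicate 1 or QKO replicate 2. *Kcnq1ot1*, the paternal noncoding RNA that represses the cluster, was called in the same cells (1.11 ± 0.22), with 127, 153, 252 and 143 CPM against 42.5, 68.1 and 127. Without QKO replicate 3 it was at 0.86 and with WT replicates 5 to 8 alone at 0.69 ± 0.21. In QKO EpiLCs *Kcnq1ot1* had 199, 191, 188 and 203 CPM against 62.5, 92.3 and 149 (0.997 ± 0.22). The counting was blind to strand, since all 287 genes whose exons lie wholly under exons of an opposite-strand gene had 0 reads, against 21.2% of 38672 genes under no other gene. Unspliced *Kcnq1* RNA therefore cannot be told apart from *Kcnq1ot1*.

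*Cdkn1c* had fitted changes below 0 in all mutants at both stages, from -0.74 ± 0.15 in QKO EpiLCs to -1.33 ± 0.24 in TKO mES cells, its only call. In mES cells LBRKO replicates 3 and 4 (1.17 and 0.976 CPM) and QKO replicate 2 (0.958 CPM) lay within the WT range. WT mES replicates 1 to 4 had a mean of 1.03 CPM and replicates 5 to 8 of 1.65, without overlap. TKO mES cells had 0.462, 0.4998, 0.766 and 0.402 CPM against 0.883, 1.31 and 1.74 in WT, and with WT replicates 1 to 4 alone the change was -0.93 ± 0.26. In EpiLCs *Cdkn1c* was at 11.1, 10.5, 11.8 and 11.6 CPM in TKO against 17.4, 22.6 and 26.4 in WT (-0.999 ± 0.16).

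**Figure D4:**
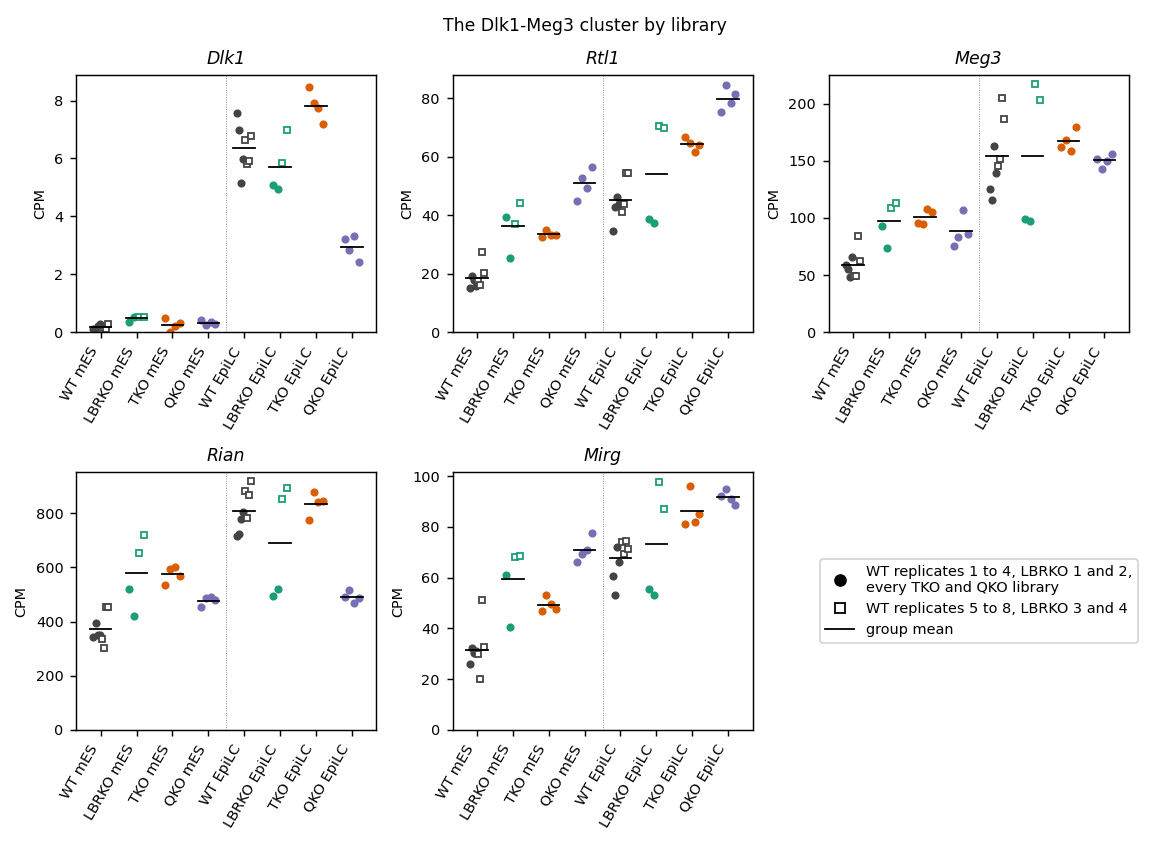
CPM of *Dlk1*, *Rtl1*, *Meg3*, *Rian* and *Mirg* in each library, with group means as lines. Open squares are WT replicates 5 to 8 and LBRKO replicates 3 and 4. *Dlk1* is lowest among EpiLCs in QKO, and LBRKO EpiLC replicates 3 and 4 lie above replicates 1 and 2 for *Meg3*, *Rian*, *Mirg* and *Rtl1*.

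In the *Dlk1*-*Meg3* cluster, mutant mES cells had more of the maternal RNAs than WT. *Mirg* was at 19.9, 30.7 and 51.1 CPM in WT, 61.2, 40.5, 68.1 and 68.5 in LBRKO, 46.9, 53.2, 49.7 and 47.8 in TKO and 66.3, 69.3, 71.0 and 77.7 in QKO. LBRKO and TKO overlapped WT through its highest library, and QKO did not. *Mirg* was called in QKO (1.17 ± 0.14) and was under 2-fold in LBRKO (0.91 ± 0.14) and TKO (0.64 ± 0.15). *Meg3* (0.71 ± 0.16, 0.77 ± 0.16 and 0.58 ± 0.16) and *Rian* (0.63 ± 0.12, 0.63 ± 0.12 and 0.36 ± 0.12) passed the adjusted p in LBRKO, TKO and QKO without reaching 2-fold. Without WT replicate 7, the highest WT library, *Mirg* in LBRKO was at 1.04.

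*Rtl1* was called in QKO mES cells (1.45 ± 0.14), with 44.9, 52.8, 49.2 and 56.4 CPM against 15.1, 17.7 and 27.2 in WT. The gene lies on the strand opposite to a maternal antisense RNA and its counts cannot be told apart from those of that RNA. Over the 8 group means *Rtl1* followed the maternal *Mirg* with Pearson's r = 0.988 and the paternal *Dlk1* with r = 0.73 (Spearman's rho 1 and 0.714), as a description over means of the same libraries.

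*Dlk1* (chr12:109418749-109429262) itself was raised in LBRKO mES cells and lowered in QKO EpiLCs. LBRKO mES cells had 0.362, 0.529, 0.509 and 0.526 CPM, above the highest WT library at 0.294 (1.54 ± 0.32, adjusted p = 0.000247). QKO EpiLCs had 3.20, 2.85, 3.31 and 2.44 CPM, below the lowest WT library at 5.15 (-1.11 ± 0.23), and TKO EpiLCs had 8.47, 7.92, 7.72 and 7.18. *Rian* was also lower in QKO EpiLCs, at 491, 518, 467 and 489 CPM against 714, 793 and 920.1, without reaching 2-fold (-0.72 ± 0.12).

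The LBRKO libraries fell into pairs. In EpiLCs replicates 1 and 2 had 99.1 and 97.8 CPM of *Meg3*, and replicates 3 and 4 had 217 and 203. The means of the pairs differed more than 1.5-fold for 7 of 33 members in EpiLCs (*Airn*, *Meg3*, *Rian*, *Mirg*, *Rtl1*, *Zim1* and *Kcnq1ot1*), against 19.9% of all genes. In mES cells they did so for 6 of 33 (*H19*, *Igf2*, *Usp29*, *Peg10*, *Sgce* and *Cdkn1c*), against 11.5%. Whether the pairs are different clones is not given in the labels.

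The table also counts miRNA hairpins of the *Dlk1*-*Meg3* region. Of 31 tested, 13 rose in LBRKO, 3 in TKO and 20 in QKO mES cells, 0, 0 and 7 rose in EpiLCs, and 0 fell. Of all genes, 3.06%, 2.68% and 10.6% rose in these mES comparisons and 3.04%, 1.44% and 13% in the EpiLC comparisons. The RefSeq set (GRCm38.p6) held mature sequences for 28 of them. The arms of 4 hairpins are shown as examples of the small RNAs this unit encodes. Among the 11 hairpins that rose in both LBRKO and QKO mES cells, they had the smallest adjusted p in QKO mES cells of those with sequences. They were chosen after their values were seen. Capitals mark the seed (bases 2 to 8).

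miR-1193-5p: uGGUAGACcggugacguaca
miR-1193-3p: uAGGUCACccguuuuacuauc
miR-667-5p: cGGUGCUGguggagcagugagcacg
miR-667-3p: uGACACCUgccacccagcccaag
miR-540-5p: cAAGGGUCacccucugacucugu
miR-540-3p: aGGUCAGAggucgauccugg
miR-679-5p: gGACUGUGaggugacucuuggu
miR-679-3p: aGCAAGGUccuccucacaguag

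None of these 8 arms shares its seed with another. Their hairpins changed in QKO mES cells by 1.75 ± 0.34 (*Mir1193*), 2.03 ± 0.46 (*Mir667*), 1.81 ± 0.42 (*Mir540*) and 1.75 ± 0.42 (*Mir679*). Mean levels in WT mES cells were 0.301, 0.152, 0.182 and 0.169 CPM, so the values rest on few reads, and those are of the long precursor.

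On chromosome 6, *Peg10* and *Sgce* were raised in LBRKO and lowered in TKO mES cells. *Peg10* (chr6:4747306-4760517), a retrotransposon-derived gene needed for the placenta, was at 49.5, 90.4 and 136 CPM in WT, 174, 154, 365 and 409 in LBRKO, 23.8, 24.3, 25.1 and 27.2 in TKO and 33.5, 34.9, 35.5 and 31.2 in QKO. *Sgce*, the gene of epsilon-sarcoglycan that starts across the second stretch printed above, was at 1.65, 2.72 and 2.95 CPM in WT, 4.43, 3.98, 7.45 and 11.0 in LBRKO, 1.06, 0.893, 0.560 and 1.06 in TKO and 1.14, 1.76, 1.26 and 1.10 in QKO. The rises in LBRKO were 1.56 ± 0.24 and 1.43 ± 0.19 and the falls in TKO -1.89 ± 0.29 and -1.49 ± 0.24, without overlap with WT. In QKO *Peg10* fell (-1.47 ± 0.28) and *Sgce* was at -0.93 ± 0.23.

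Genes of chromosome 6 as a whole were shifted in the mutant lines. The study described cells with an extra chromosome 6, among other changes, in part of the WT line, and LBRKO cells were made from WT cells. The part of such cells in these levels was not tested. In single libraries their median log2 level, relative to WT and to the other autosomes, was 0.318 to 0.365 in LBRKO, -0.150 to -0.093 in TKO and -0.153 to -0.092 in QKO. With the chromosome median taken off, *Peg10* and *Sgce* were at 1.18 and 1.05 in LBRKO and -1.73 and -1.33 in TKO mES cells. With LBRKO replicates 1 and 2 alone they were at 0.82 ± 0.29 and 0.76 ± 0.20, under 2-fold, and the fall of *Peg10* in QKO was -0.79 ± 0.19 with WT replicates 1 to 4 alone. In EpiLCs neither gene was called in a mutant. QKO EpiLCs had 365, 373, 430.3 and 452 CPM of *Peg10* against 163, 237 and 452 in WT (0.58 ± 0.25, adjusted p = 0.0443) and 3.24, 3.81, 5.14 and 3.78 of *Sgce* against 4.70, 6.98 and 8.31 (-0.76 ± 0.20, adjusted p = 0.00136), so there the fitted changes had opposite signs. With WT replicates 5 to 8 alone *Peg10* passed in LBRKO (1.05 ± 0.17) and QKO (1.21 ± 0.17).

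*Mest* was at 59.5, 87.3 and 121 CPM in WT and 218, 217, 227 and 236 in LBRKO mES cells (1.32 ± 0.13), without overlap. With the chromosome median taken off it was at 0.95, and with WT replicates 5 to 8 alone at 0.95 ± 0.06, both under 2-fold. TKO mES cells had 58.8, 64.0, 55.6 and 58.3 CPM and QKO 50.9, 49.6, 48.5 and 52.9, and LBRKO EpiLCs 447, 470.1, 459 and 518 against 277, 316 and 363 in WT (0.58 ± 0.13).

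**Figure D5:**
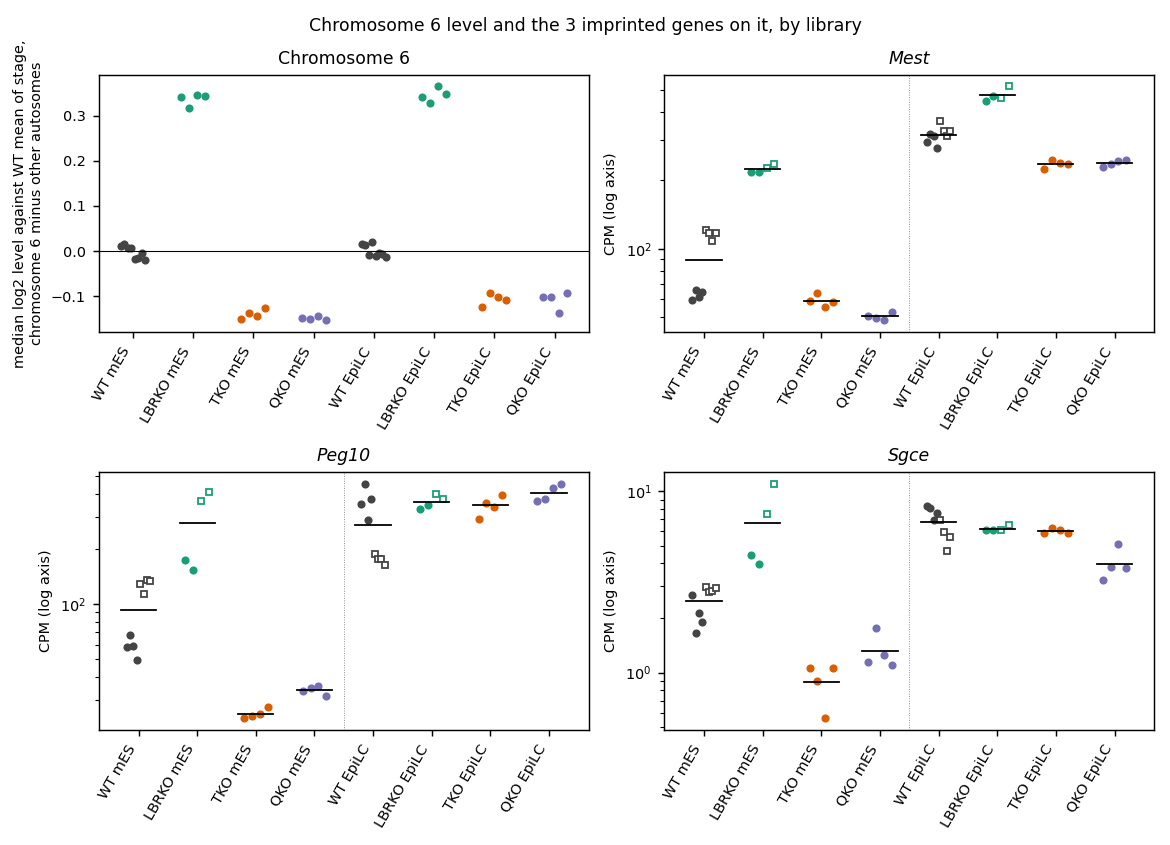
First panel, for each library, the median log2 level of chromosome 6 genes relative to WT minus that of other autosomes, with LBRKO at 0.318 to 0.365 and TKO and QKO below 0. The other panels give CPM (log axis) of *Mest*, *Peg10* and *Sgce* by library with group means, and open squares are WT replicates 5 to 8 and LBRKO replicates 3 and 4.

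At the *H19*-*Igf2* locus, *H19* (chr7:142129262-142131886) fell in all 3 mutants in mES cells, from a low level. WT libraries had 0.242, 0.4996 and 0.752 CPM, LBRKO 0.149, 0.115, 0.297 and 0.175, TKO 0.0330, 0, 0.236 and 0 and QKO 0.162, 0, 0.157 and 0.137. The changes were -1.500 ± 0.38, -2.78 ± 0.51 and -2.16 ± 0.48, and only LBRKO overlapped WT. They rest on few reads: without TKO replicate 3 the change in TKO was -5.13 ± 0.76, a fitted value that depends on the prior count, and with LBRKO replicates 3 and 4 alone that in LBRKO was -1.13 ± 0.48 (adjusted p = 0.106). In EpiLCs *H19* was under 2-fold in each mutant, highest in QKO at 15.6, 12.6, 12.7 and 12.7 CPM against 5.79, 7.81 and 10.3 (0.75 ± 0.22).

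*Igf2* was called higher in QKO mES cells (2.19 ± 0.59), with 0.130, 0.192, 0.118 and 0.172 CPM against 0, 0.0156 and 0.0981 in WT, and in QKO EpiLCs (1.23 ± 0.38), with 0.936, 0.384, 0.917 and 0.756 CPM against 0.180, 0.308 and 0.420. Of its exon bases 35.5% are free of other genes, and the table that allowed 100 alignments held 8.88 times as many of its reads. In that table *Igf2* was at 0.59 ± 0.19 in QKO EpiLCs, under 2-fold.

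*Igf2r* and *Airn* were called in no mutant. *Igf2r* had 138, 171 and 199 CPM in WT mES cells and changes from -0.36 ± 0.09 in LBRKO to 0.21 ± 0.08 in TKO mES cells. *Airn*, the paternal antisense RNA that represses *Igf2r*, was at 0.794 CPM or less in each of the 40 libraries.

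In the *Snrpn*-*Ndn* cluster *Magel2* in TKO EpiLCs was the only call. It had 2.65, 3.02, 3.14 and 2.85 CPM against 4.49, 6.29 and 7.75 in WT (-1.05 ± 0.23, adjusted p = 0.00103). Without WT replicate 8 *Magel2* was at -0.99, with WT replicates 1 to 4 alone at -0.79 ± 0.24 and with a replicate block at -0.76 ± 0.23, under 2-fold in each. The last 2 are not separate checks, since replicate numbers above 4 exist only in WT and the block fits each number its own term. *Snrpn* was higher in LBRKO mES cells, at 64.9, 58.3, 63.1 and 67.2 CPM against 33.3, 38.2 and 43.4 (0.72 ± 0.08), and in LBRKO EpiLCs (0.58 ± 0.08), without reaching 2-fold. *Ndn*, *Mkrn3* and *Peg12* lay between -0.84 ± 0.14 and 0.05 ± 0.11 in the mutants.

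Of the members at single loci, *Nnat* rose in LBRKO mES cells, at 4.94, 4.51, 3.67 and 5.31 CPM against 1.49, 1.90 and 2.64 (1.21 ± 0.14, adjusted p = 8.94e-09). *Peg13*, a noncoding RNA within *Trappc9*, rose in QKO mES cells, at 4.84, 5.67, 4.99 and 5.18 CPM against 1.84, 2.12 and 2.87 (1.23 ± 0.13), and was just under 2-fold in LBRKO (0.99 ± 0.13). *Plagl1* was above WT in all mutant mES cells without reaching 2-fold, most in QKO at 221, 221, 221 and 208 CPM against 113, 121 and 138 (0.82 ± 0.09).

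*Gnas*, which encodes the alpha subunit of a stimulatory G protein, *Impact* and *Zdbf2*, a zinc-finger gene, were called in no mutant against WT. *Impact* lay between -0.02 ± 0.10 and 0.23 ± 0.10 and *Zdbf2* between -0.22 ± 0.11 and 0.22 ± 0.10 over the 6 comparisons. The counts of *Gnas* were incomplete, since the table that allowed 100 alignments held 17.1 times as many of its reads.

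QKO cells were also compared with the TKO line they were made from, which differs from them by the deletions in *Lbr* and by cloning. In mES cells 1 member rose (4.09% of all genes), *Igf2* (2.44 ± 0.76), and 1 fell (2.12%), *Slc38a4*. The *Igf2* call was lost without TKO replicate 3 (2.02, adjusted p = 0.0738). In EpiLCs 3 rose (9.97%), *Zim1* (1.89 ± 0.38), *Peg3* (1.32 ± 0.07) and *Kcnq1ot1* (1.02 ± 0.27), and 3 fell (5.29%), *Phlda2* (-2.31 ± 0.19), *Dlk1* (-1.41 ± 0.25) and *Grb10* (-1.23 ± 0.08). *Kcnq1ot1* was at 0.93 without TKO replicate 1. By the adjusted p alone 14 members passed in mES cells (20.5%) and 16 in EpiLCs (41.9%).

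The passage from mES cells to EpiLCs was compared between each mutant and WT as an interaction. It differed by more than 2-fold for 5 members in LBRKO (6% of all genes), 5 in TKO (3.03%) and 10 in QKO (12.6%), and by the adjusted p alone for 15 (15.5%), 12 (8.44%) and 18 (29.8%). *H19* rose more than in WT in LBRKO (1.53 ± 0.44), TKO (3.08 ± 0.56) and QKO (2.91 ± 0.52), but in LBRKO was at 1.25 ± 0.47 (adjusted p = 0.0612) with WT replicates 1 to 4 alone and at 1.30 ± 0.56 (adjusted p = 0.185) with LBRKO replicates 3 and 4 alone. *Peg10* rose less in LBRKO (-1.14 ± 0.36) and more in TKO (2.25 ± 0.37) and QKO (2.05 ± 0.37), but was at -0.06 ± 0.24 in LBRKO with WT replicates 5 to 8 alone and at 0.94 ± 0.26 in QKO with WT replicates 1 to 4 alone. The LBRKO call of *Peg10* was also lost without any 1 of LBRKO mES replicates 3 and 4, LBRKO EpiLC replicates 1 and 2 and WT EpiLC replicate 2, with -0.86 (adjusted p = 0.118) without LBRKO mES replicate 4.

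In LBRKO *Dlk1* (-1.69 ± 0.38), *Sgce* (-1.55 ± 0.27) and *Nnat* (-1.43 ± 0.19) also had lower changes in the passage than in WT. In TKO *Sgce* (1.32 ± 0.30) and *Phlda2* (1.10 ± 0.23) had higher changes and *Slc38a4* (-2.69 ± 0.13) a lower one. *Sgce* was at 0.87 ± 0.34 (adjusted p = 0.115) with WT replicates 1 to 4 alone, and *Phlda2* at 0.91 ± 0.25 with WT replicates 5 to 8 alone and 0.97 without TKO EpiLC replicate 1. In QKO *Peg3* (2.52 ± 0.09), *Usp29* (2.30 ± 0.25) and *Zim1* (1.53 ± 0.44) had higher changes, and *Dlk1* (-2.07 ± 0.44), *Grb10* (-1.65 ± 0.09), *Plagl1* (-1.23 ± 0.14), *Rian* (-1.07 ± 0.17) and *Slc38a4* (-1.01 ± 0.13) lower ones. *Slc38a4* in QKO was close to the threshold and under 2-fold in several alternatives, down to -0.88 without the filter on low counts.

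The QKO change was set against the sum of the LBRKO and TKO changes on the log2 scale. In mES cells 6 members departed from the sum (7.5% of all genes) and 11 by the adjusted p alone (17.6%). *Mest* (-1.55 ± 0.20), *Nnat* (-1.31 ± 0.24), *Sfmbt2* (-1.16 ± 0.09), *Peg10* (-1.13 ± 0.40) and *Slc38a4* (-1.08 ± 0.16) were below it and *Cdkn1c* (1.12 ± 0.36) above it. With LBRKO replicates 1 and 2 alone *Peg10* was at -0.39 ± 0.41, and with LBRKO replicates 3 and 4 alone *Cdkn1c* was at 0.69 ± 0.36. The *Peg10* call was lost in 14 of the 20 fits that left out 1 mES library, with -0.86 (adjusted p = 0.161) without LBRKO replicate 4. With WT replicates 1 to 4 alone *Slc38a4* was at -0.995 ± 0.14 and *Cdkn1c* at 0.72 ± 0.36, and with WT replicates 5 to 8 alone *Peg10* was at -0.68 ± 0.25.

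In EpiLCs 6 members departed from the sum (8.05%) and 11 by the adjusted p alone (24.3%). *Usp29* (1.496 ± 0.25), *Peg3* (1.35 ± 0.09) and *Cdkn1c* (1.05 ± 0.23) were above it, and *Sfmbt2* (-1.62 ± 0.09), *Dlk1* (-1.26 ± 0.32) and *Phlda2* (-1.08 ± 0.25) below it. *Grb10* was within its error of the sum in EpiLCs (0.04 ± 0.10, adjusted p = 0.823). *Cdkn1c* was at 0.91 ± 0.22 with WT replicates 1 to 4 alone and *Phlda2* at -0.82 ± 0.25 with LBRKO replicates 1 and 2 alone. *Phlda2* was also under 2-fold without LBRKO EpiLC replicate 4 (-0.92) and without TKO EpiLC replicate 1 (-0.95).

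Genes that set or keep imprints were read from a list of 26, all of them tested. In the WT passage 5 rose and 3 fell, against 18.2% and 12.9% of all genes. Those that rose included the de novo methyltransferases *Dnmt3b* (4.32) and *Dnmt3a* (4.04), the CTCF paralog *Ctcfl* (3.80) and the cofactor *Dnmt3l* (2.65). The 3 that fell were *Dppa3* (-4.78), which protects maternal DNA methylation in the zygote, the dioxygenase *Tet2* (-3.30) and *Zfp57* (-1.62). *Dnmt3l* rose in LBRKO (2.88), TKO (1.32) and QKO mES cells (2.28) and in LBRKO (2.12) and QKO EpiLCs (2.07). *Dppa3* fell in LBRKO mES cells (-1.31) and rose in TKO (1.37) and QKO EpiLCs (1.99), *Tet2* rose in LBRKO EpiLCs (1.30) and *Tet1* in QKO EpiLCs (1.02). No other gene of this list was called in a mutant against WT. Among all genes 3.06%, 2.68% and 10.6% rose in LBRKO, TKO and QKO mES cells and 3.04%, 1.44% and 13% in EpiLCs. In LBRKO mES cells 3.25% fell.

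Of 55 other imprinted genes, 46 were tested. In the WT passage 12 rose, most of all *Dcn* (10.52) and *Slc22a3* (7.96), and 11 fell, most of all *Zim2* (-4.14) and *Cobl* (-3.49). Among all genes 18.2% rose and 12.9% fell in that passage. *Dcn*, which is also among the fibroblast markers, was below 0.1 CPM in every mES group, so its value rests on few reads there. In mES cells 4 rose and 2 fell in LBRKO, 2 and 2 in TKO and 4 and 4 in QKO. *Asb4*, near *Peg10*, fell in LBRKO (-2.01) and rose in TKO (3.75) and QKO (4.00), and *Atp10a*, in the *Snrpn* region, fell in LBRKO (-1.38), TKO (-2.24) and QKO (-4.07). In EpiLCs 3 rose and 3 fell in LBRKO, 0 and 1 (*Slc22a18*, -1.40) in TKO and 8 and 8 in QKO, where *Zim2* (5.10), beside *Peg3*, rose most and *Slc22a18* (-2.83), in the *Kcnq1* region, fell most. The shares of all genes that rose and fell were 3.06% and 3.25% in LBRKO, 2.68% and 3.77% in TKO and 10.6% and 6.66% in QKO mES cells, and 3.04% and 2.63%, 1.44% and 1.48%, and 13% and 8.16% in EpiLCs.

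Genes within 500 kb of a member and not listed as imprinted numbered 235, of which 101 were protein-coding and 45 miRNA hairpins. Of the protein-coding neighbours 6.93% were called in LBRKO, 6.93% in TKO and 17.8% in QKO mES cells, and 4.95%, 2.97% and 13.9% in EpiLCs. The shares of all genes tested were 6.31%, 6.45% and 17.2% in mES cells and 5.67%, 2.91% and 21.2% in EpiLCs, near those of these neighbours in LBRKO and TKO and in QKO mES cells. Of the hairpins 44.4%, 6.67% and 62.2% were called in mES cells and 24.4%, 4.44% and 37.8% in EpiLCs, all of them higher than WT. Most of them are the hairpins of the *Dlk1*-*Meg3* region (31) and the *Sfmbt2* intron (12) described above. Their counts read the long precursors of these 2 units, so the shares do not describe neighbours across loci.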

How the data were processed

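Total RNA was sequenced in 40 libraries made with a stranded Illumina kit after removal of ribosomal RNA: 20 of mES cells and 20 of EpiLCs. The deposited values were raw read counts per gene, made by the authors with cutadapt 2.5, STAR 2.7.10a, SAMtools 1.10 and featureCounts 1.6.4 according to the submitters' processing notes, on GRCm39, with reads that align once. A second deposited table of counts allowed up to 100 alignments per read and served as an alternative. Depth, which limits the precision of low counts, was 22.6 to 48.9 M reads. All columns were matched to labelled samples, with 0 unmatched.

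From the counts, CPM on TMM-adjusted library sizes were computed and all 40 libraries were fitted together in edgeR 4.0.16 (R 4.3.3) with 1 mean per group, after the default filter on low counts, which left 23399 of 56748 genes. Contrasts of group means were tested with the quasi-likelihood test, Benjamini-Hochberg adjusted over all genes tested. A gene was called at an adjusted p under 0.05 and a change over 2-fold. The test was checked on simulated data. No pseudocount was added to printed CPM.

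All 34 members are named, of the other lists at most the 4 called genes with the largest fold per direction, and of neighbours within 500 kb at most 3 per cluster. The hairpins shown are an exception and were chosen after their values were seen. The members, the lists of imprint maintenance genes (26), other imprinted genes (55) and cell type markers, and the tests were chosen with earlier results of these data known. Exon overlaps were computed from the exon positions deposited with the counts. Gene symbols and types were taken from GENCODE M39, which held 56017 of the gene identifiers, 55857 of them at close to the same place.

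The alternatives were DESeq2 1.42.0, edgeR with median-ratio size factors, no filter on low counts, a replicate block, each replicate left out, WT replicates 1 to 4 or 5 to 8 only, changes relative to the chromosome median, the second table and the adjusted p alone. The split of the LBRKO libraries was added after the data were seen.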

Additional observations from a re-analysis of the deposited data

Results flagged for a closer look

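In 272 pairs of a gene and a group of 4 or 8 libraries, 13 held a library far from the others (4.78%), where chance gives about 1 group in 20. WT mES replicate 7 was high for *Mirg* (51.1 CPM, the others 19.9 to 32.6) and *Rtl1* (27.2 CPM, the others 15.1 to 20.2), both of the *Dlk1*-*Meg3* cluster. WT mES replicate 3 was high for *Gnas* (5.06 CPM, the others 2.29 to 3.22). TKO mES replicate 3 was high for *H19* (0.236 CPM, the others 0 to 0.0330) and had 0 CPM of *Igf2* (the others 0.0330 to 0.0365). QKO mES replicate 2 had 0 CPM of *H19* (the others 0.137 to 0.162). TKO EpiLC replicate 1 was low for *Igf2r* (153 CPM, the others 177 to 178) and *Zdbf2* (246 CPM, the others 279 to 284). LBRKO mES replicate 1 was low for *Dlk1* (0.362 CPM), LBRKO mES replicate 4 high for *Phlda2* (4.93 CPM), LBRKO EpiLC replicate 4 high for *Sgce* (6.54 CPM), QKO mES replicate 4 low for *Plagl1* (208 CPM) and QKO EpiLC replicate 1 high for *H19* (15.6 CPM).

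By the edgeR interaction term, 20 pairs of gene and mutant differed from WT in the change between stages. In LBRKO the log2 differences were 1.53 for *H19*, -1.69 for *Dlk1*, -1.14 for *Peg10*, -1.55 for *Sgce* and -1.43 for *Nnat*. In TKO they were 3.08 for *H19*, 2.25 for *Peg10*, 1.32 for *Sgce*, 1.10 for *Phlda2* and -2.69 for *Slc38a4*. In QKO they were 2.91 for *H19*, 2.52 for *Peg3*, 2.30 for *Usp29*, 2.05 for *Peg10*, 1.53 for *Zim1*, -2.07 for *Dlk1*, -1.65 for *Grb10*, -1.23 for *Plagl1*, -1.07 for *Rian* and -1.01 for *Slc38a4*. These share the WT libraries, and *H19* in mES cells rests on few reads.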

How the results depend on the processing

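No change of direction was seen among the calls under the alternatives run. Of 244 single values, 241 kept their side of the threshold with DESeq2, 241 with median-ratio size factors, 236 without the filter, 238 in the table that allowed 100 alignments, 236 relative to the chromosome median and 228 with the replicate block. With WT replicates 1 to 4 or 5 to 8 only it was 196 of 214 each, and with LBRKO replicates 1 and 2 or 3 and 4 only, an alternative chosen after seeing the data, 61 and 60 of 71. Over all libraries left out in turn, 3555 of 3644 values kept their side.

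By the adjusted p alone the called members numbered 22, 21 and 25 in LBRKO, TKO and QKO mES cells, 12, 11 and 26 in EpiLCs, 14 and 16 for QKO against TKO in mES cells and EpiLCs, 15, 12 and 18 for the passage in LBRKO, TKO and QKO, and 11 and 11 against the sum in mES cells and EpiLCs. In TKO EpiLCs 1 member was called with WT replicates 1 to 4 only and 1 with the replicate block. With each library left out in turn, 22 to 23 members were called in the WT passage, 9 to 13, 5 to 6 and 10 to 15 in LBRKO, TKO and QKO mES cells and 5 to 5, 1 to 3 and 8 to 9 in EpiLCs. For QKO against TKO it was 1 to 2 and 5 to 7, for the passage 4 to 5, 4 to 5 and 9 to 10, and against the sum 4 to 8 and 5 to 6. The count of 1 came without WT EpiLC replicate 8 in TKO EpiLCs and without TKO mES replicate 3 for QKO against TKO mES cells. Against the sum in mES cells the count of 4 came without TKO mES replicate 1 or 4, where *Cdkn1c* and *Peg10* were both lost. Without TKO mES replicate 3, *H19* moved to -5.13 in TKO mES cells and 5.44 in the TKO passage. Why these values move was not tested.

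Same-numbered libraries deviated together in some pairs of groups. Over replicates 1 to 4, 42 of 112 pairs had a correlation over 0.1 (range -0.514 to 0.529), and 12 of 32 libraries correlated best with their own number. WT mES cells and WT EpiLCs had 7 of 8 pairs over 0.1 (0.0808 to 0.621), and 5 of 8 within WT replicates 1 to 4 and 5 to 8. LBRKO mES cells and EpiLCs had 3 of 4, and so did TKO and QKO EpiLCs. In 0 of 28 pairs of groups did all exceed 0.1, so the numbers were not taken as pairing. The replicate block lost *Ascl2* in QKO mES cells, *Magel2* in TKO EpiLCs, *Peg10*, *Slc38a4* and *Cdkn1c* against the sum in mES cells and *Cdkn1c* and *Phlda2* against it in EpiLCs, gained 9 values and changed none in the passage comparisons. Numbers 5 to 8 exist only in WT, so against a mutant the block rests mainly on WT replicates 1 to 4. Members under 1 CPM, such as *Airn*, *Igf2* and *H19* in mES cells, are limited by depth.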
